A study of Caenorhabditis elegans with 28 samples.

Results

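The late-annotated miRNAs of Caenorhabditis elegans described here are all mature arms whose miRNA number is 1800 or higher, with letter suffixes ignored and with the hairpins miR-1834, miR-4807 and miR-5592 left out. The number limit used no measured value, but these 3 hairpins carry numbers above it and were left out by name, with earlier results of these data known. The members comprised 190 of the 437 mature arms in the table and came from 109 of its 247 hairpins, counted by name. The members ran from miR-1817 to miR-12134, and the highest number below the limit was 1022, so no arm lay close to it.

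Small RNAs were sequenced from whole larvae of the ebax-1 mutant (strain HW3527, allele tm2321, which the labels place on chromosome IV) and of wild type (strain N2). Synchronised L1 larvae of both strains were plated, kept at 25 °C without treatment and collected hourly between 18 and 31 h, which gave 1 library per strain and hour and 28 libraries in all. The 14 hours of a strain are a time series of pooled animals and not replicates, and strain and culture cannot be told apart. Because the mutant develops more slowly, strains were compared after a shift of 3 h, with mutant larvae of 21 to 31 h set against wild-type larvae of 18 to 28 h.

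A miRNA hairpin is cut out of a primary transcript by Drosha and its partner Pasha and is then cut again by Dicer, which leaves a duplex of a 5p and a 3p arm. The arm that is retained by an Argonaute protein becomes the guide and pairs through its seed with messenger RNAs, while the other arm, the passenger, is usually lost. Numbers were given to miRNAs in the order in which they were registered, so that low numbers mostly belong to miRNAs found by early cloning and high numbers mostly to those found by deep sequencing. EBAX-1 is the worm counterpart of ZSWIM8, a substrate receptor of a Cullin-RING ubiquitin ligase through which certain miRNAs are degraded.

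The library totals ranged between 4970366 and 13223782 counts in the mutant and between 4938126 and 11683557 in wild type. Normalised counts are counts scaled to the library total and multiplied by the mean total of the 28 libraries. A level of 3 reads then corresponded to between 1.90 and 5.04 normalised counts in mutant libraries and to between 2.15 and 5.08 in wild-type libraries. The 7 tissue markers (miR-1-3p of muscle, miR-60-3p of intestine, miR-124-3p and lsy-6-3p of neurons, miR-228-5p of glia, and let-7-5p and miR-84-5p of epidermis) were read in every library. Medians were lower in the mutant for 5 of the 7, with 972 normalised counts in mutant and 1780 in wild-type libraries for miR-60-3p, 472270 and 613956 for miR-1-3p, 84033 and 124774 for let-7-5p, 50551 and 83701 for miR-84-5p, and 103 and 166 for lsy-6-3p. They were higher in the mutant for miR-228-5p, with 107736 in mutant and 78844 in wild-type libraries, and for miR-124-3p, with 608 in mutant and 454 in wild-type libraries. All these medians are over 18 to 31 h in both strains, without a shift of hours between them. From 18 to 31 h let-7-5p went from 3716 to 151303 in the mutant and from 5280 to 247287 in wild type. The ranges of the strains overlapped for all 7. The part of these marker differences in the results that follow was not tested. One of several miRNAs on which EBAX-1 is known to act, miR-35-3p, lay between 26557 and 69145 normalised counts in the mutant and between 1719 and 6900 in wild type, without overlap. In whole animals, fewer cells that express a miRNA and less of it per cell cannot be told apart.

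Most of the late-annotated arms were rare. An arm was called detected when it had 3 or more raw counts in at least 7 of the 14 libraries of a strain. By this measure 92 of 190 late-annotated arms (48.4%) were detected, against 217 of 247 remaining arms (87.9%). Of the 92, 80 were detected in both strains. Only 2 were detected in the mutant but not in wild type (miR-2209c-3p and miR-8210-3p) and 10 in wild type but not in the mutant, among them miR-4922, which reached 3 counts in 5 mutant and 10 wild-type libraries. The mutant libraries were somewhat shallower, with a mean total of 7820599 counts against 8893568 in wild type, and the 12 arms lay at means of 1.18 to 3.48 normalised counts in the mutant and 2.09 to 7.51 in wild type, close to the detection limit. A further 78 members had some reads without being detected, and 20 had no read in any library.

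The detected late-annotated arms had a median mean level of 16.8 normalised counts, against 1085 for the detected remaining arms. Of the members, 55 averaged at least 10 normalised counts over the 28 libraries, 23 at least 100 and 6 at least 1000. None averaged 10000, a level that 51 of the remaining arms exceeded. Detection differed with the block of numbers. Of the oldest block, miR-1817 to miR-1833, 23 of 28 arms were detected, and the whole block made up 77.4% of the summed member level. Of miR-4805 to miR-4816, 15 of 22 arms were detected, and that block made up 12.3%. The blocks miR-2207 to miR-2221 (14 of 38 arms), miR-4920 to miR-4938 (6 of 19), miR-5545 to miR-5595 (8 of 24) and miR-8186 to miR-8212 (24 of 56) were detected less fully. Both arms of miR-2953 were detected, while miR-12134 was not. miR-4807 and miR-5592 carry numbers within miR-4805 to miR-4816 and miR-5545 to miR-5595. They were left out by name and do not enter these counts and shares.

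The family miR-1829 led the members. Its most abundant arm, miR-1829b-5p, had a lowest, median and highest level of 3862, 4770 and 7820 normalised counts in the mutant, against 5313, 7146 and 8507 in wild type. It ranked 58 in the whole table and made up 30.3% of the summed member level. miR-1829c-5p and miR-1829a-5p followed, with means of 1543 and 1762 normalised counts in the mutant and of 2962 and 2555 in wild type. The 3 hairpins lie on chromosome X of assembly WBcel235, each in an intron and on the strand of a host gene. These are gas-1 for miR-1829a (X:15588311-15588370), F20D1.3 for miR-1829b (X:14977119-14977178) and piki-1 for miR-1829c (X:15236362-15236423). gas-1 codes for a subunit of mitochondrial complex I, and piki-1 for a phosphoinositide 3-kinase. The same host, piki-1, also carries miR-4812 in an intron (X:15242774-15242849). Reads that fit several sisters could have been divided among them, so that the split between the miR-1829 sisters is uncertain.

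The other members that averaged above 1000 normalised counts were miR-1820-5p, miR-4816-3p and miR-1822-3p. miR-1820-5p averaged 1577 ± 466 normalised counts in the mutant and 2004 ± 464 in wild type (SD over 14 hours). Its hairpin is intergenic (IV:7767461-7767567). miR-4816-3p averaged 1073 ± 243 in the mutant and 1689 ± 211 in wild type, and lies in an intron of T09B4.2 (I:6185080-6185144). miR-1822-3p averaged 898 ± 217 in the mutant and 1276 ± 271 in wild type, and lies in an intron of ZK84.2. Below these, miR-4936, miR-1829b-3p, miR-1830-3p, miR-4813-3p, miR-2210-3p and miR-5551-5p completed the 12 most abundant arms, with means over all libraries between 241 and 577 normalised counts. These 12 arms held 85.7% of the summed level of the 190.

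**Figure D1:**
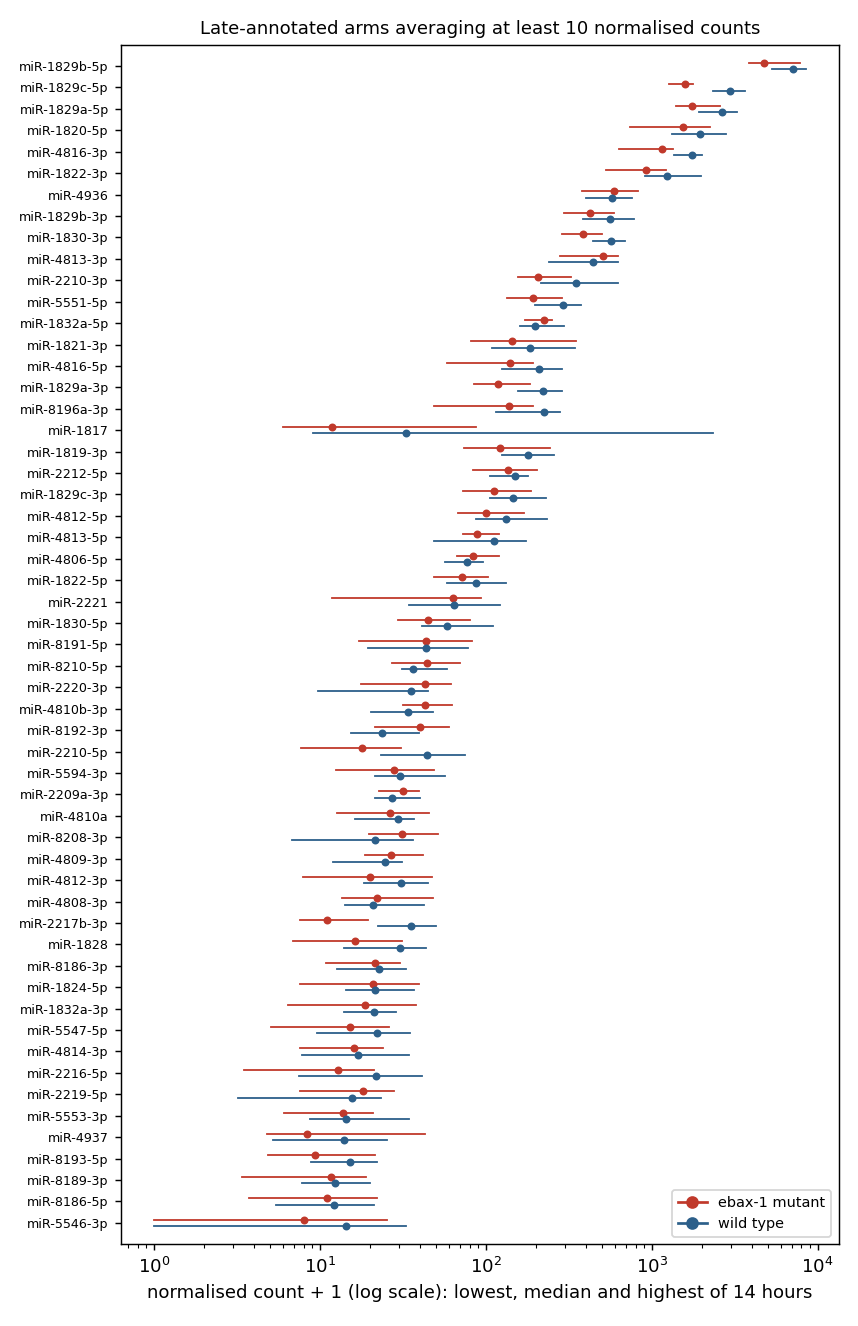
Normalised count plus 1 on a log axis for the 55 late-annotated arms that averaged at least 10. Each line runs from the lowest to the highest of 14 hourly libraries and the point is the median, with the ebax-1 mutant in red above wild type in blue. The lines span about 3 orders of magnitude between members, and miR-1817 has by far the longest wild-type line, which ends at 2342.

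Together, the members made up 0.178 to 0.231% of all counts in the mutant libraries (median 0.197%) and 0.247 to 0.301% in the wild-type libraries (median 0.282%). All 14 mutant libraries thus lay below all 14 wild-type libraries. Without the arms of miR-1829, the share was 0.0696 to 0.106% in the mutant and 0.104 to 0.135% in wild type, where the groups overlapped. These sums are given as a description.

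All 109 hairpin names were found in the annotation of assembly WBcel235. The name miR-2217b-1 stands for the chromosome X locus of miR-2217b (X:17608227-17608288), so that this locus was counted under both names. Counted by name, 105 hairpins had a single locus. Of these, 36 lay in an intron and 4 in an exon of a gene of the same strand, and 52 were intergenic. The remaining hairpins of the table lay inside a same-strand protein-coding gene in 30 of 135 cases and between genes in 86. Among hosts of detected members, pash-1, which codes for Pasha itself, carries miR-1828 in an intron (I:10600463-10600525). paic-1, for a purine synthesis enzyme, carries miR-1830, and idhg-1, for a subunit of mitochondrial isocitrate dehydrogenase, carries miR-4813 in an exon (III:4571640-4571716).

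Arm bias could be read for 24 hairpins with both arms detected. The 5p arm was the more abundant in 14 and the 3p arm in 10. The more abundant arm was the same in all 28 libraries for 17 of the 24. The ratio of the mean levels of the major and minor arm had a median of 8.68, against 29.2 for the 95 remaining hairpins of the table with both arms detected, and it reached 10 in 10 of 24 members' hairpins and in 60 of those 95. With minor arms near the detection limit, such ratios depend on few reads.

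The strongest bias was that of miR-1820, whose 5p arm averaged 489 times its 3p arm in the mutant and 683 times in wild type. The 3p arm averaged only 3.23 normalised counts in the mutant and 2.94 in wild type. In the miR-1829 hairpins the 5p arm exceeded the 3p arm in every library, by 14.5, 12.1 and 13.7 times in the means of the mutant for miR-1829a, miR-1829b and miR-1829c, and by 11.8, 12.7 and 20.1 times in wild type. A 3p bias was seen in every library for miR-1822, miR-2210, miR-1830, miR-4816, miR-1819, miR-4813 and miR-8208.

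At the other end, 5 hairpins had a ratio under 2, namely miR-8186, miR-8201, miR-2953, miR-8211 and miR-2208b. The more abundant arm of miR-8211 was higher in only 17 of 28 libraries and that of miR-2208b in 18. miR-8186 has 2 annotated loci that overlap on opposite strands of chromosome II, so that its arms cannot be assigned to a single precursor. A further 34 hairpins with both arms listed had a single detected arm, such as miR-5551, with means of 199 and 0.618 normalised counts for the 5p and 3p arm in the mutant and of 282 and 0.583 in wild type.

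**Figure D2:**
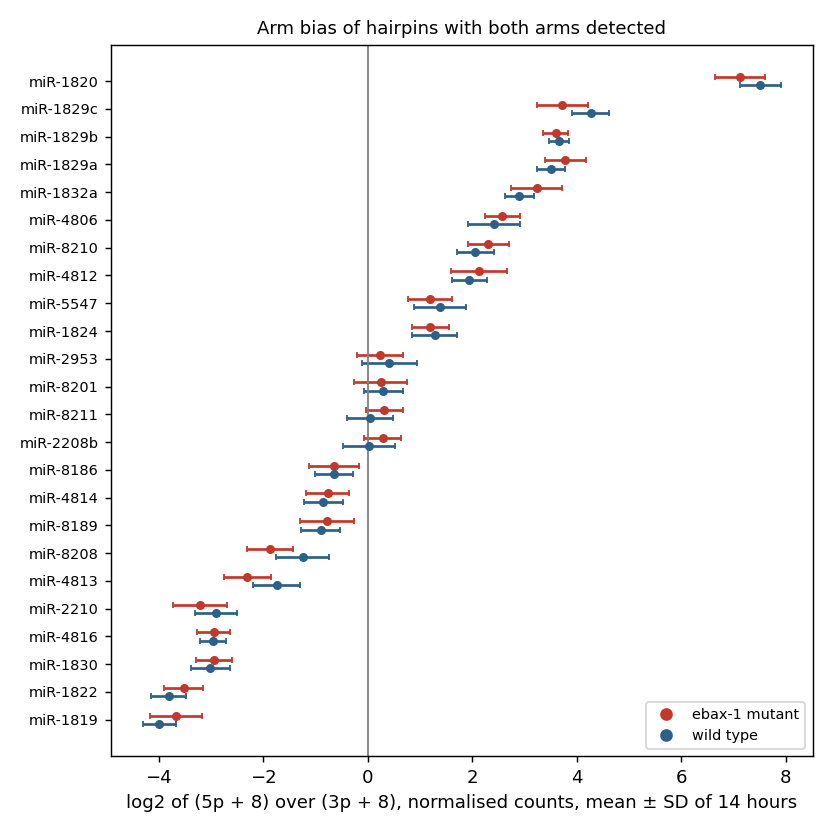
Log2 ratio of the 5p to the 3p arm, with 8 added to each normalised count, for the 24 hairpins with both arms detected. Points are means and bars SDs of 14 hourly libraries, with the ebax-1 mutant in red above wild type in blue, and the line at 0 marks equal arms. Hairpins at the top are 5p-biased, led by miR-1820, and those at the bottom are 3p-biased.

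The ratio of the arms was compared between strains with limma for the 96 hairpins of the table with a mean of at least 10 normalised counts in each arm, at a Benjamini-Hochberg adjusted p under 0.01. Of these, 44.8% were called, and of the 11 late-annotated hairpins tested 2 were called, miR-1829c and miR-4813. The ratio of miR-1829c-5p to miR-1829c-3p had a lowest, median and highest value of 6.85, 11.97 and 21.97 at the matched hours of the mutant, against 18.9, 21.7 and 26.9 in wild type. The groups overlapped slightly. The log2 ratio differed by -0.79 ± 0.13 (SE, limma adjusted p = 6.09e-05). This call held in each of the 22 fits that left out 1 library. For miR-4813, the ratio of the 5p to the 3p arm had a lowest, median and highest value of 0.157, 0.192 and 0.424 in the mutant and of 0.1596, 0.287 and 0.435 in wild type, with a log2 difference of -0.46 ± 0.13 (limma adjusted p = 0.00617). That call held in 12 of 22 such fits, and the groups overlapped widely. Near the threshold lay miR-2210 (-0.49 ± 0.16, adjusted p = 0.0180) and miR-1832a (0.44 ± 0.15, adjusted p = 0.0181), which were not called.

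Differences in level between the strains were tested with limma on log2(normalised count + 8), with a spline over the 11 matched hours for each strain. The added 8 makes differences of rare arms smaller than their fold changes. A first test asked for any strain effect and called 67 of 406 arms of the table (16.5%). Of the 170 late-annotated arms tested, it called 11 (6.47%), all with lower levels in the mutant, against 56 of 236 remaining arms (23.7%). The 11 were miR-1829c-5p, miR-8196a-3p, miR-2217b-3p, miR-4816-3p, miR-4816-5p, miR-2210-5p, miR-1820-5p, miR-1830-3p, miR-1829a-3p, miR-1829b-5p and miR-2953-5p. This count moved with single libraries. When the 3 shallowest mutant libraries (28, 29 and 31 h) were left out, none of the 11 was called, the lowest of their adjusted p values being 0.0112 for miR-1829c-5p, and miR-8200-5p was the only member called. Of all arms, 19 of 404 were then called. With the same 14 coefficients, that fit had fewer residual degrees of freedom than the 8 of the full fit. When 25 h of wild type was left out, 3 members were called.

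A second test on the mean difference over the matched hours gave the direction. It called 22.2% of the 406 arms as lower and 8.13% as higher in the mutant, and with TMM scaling 13.1% and 12.3%. Of the 170 late-annotated arms tested, 27 fell (15.9%) and 0 rose. The remaining 236 arms included 63 that fell (26.7%) and 33 that rose (14%). One of these 33 was miR-4807, whose number is above the limit and which was left out by name (1.61 ± 0.09, limma adjusted p = 3.68e-07), so that the count of 0 depends in part on how the members were chosen. Neither arm of miR-5592, also left out, was called. The 27 comprised 26 of the 92 detected members (28.3%) and miR-2208a-5p, which was near 0 in both strains. The 22.2% of all 406 arms includes arms that were not detected. At an unadjusted p under 0.05, 45 members were lower and 7 higher in the mutant. edgeR called 19 members as lower and 5 as higher, DESeq2 19 and 6, and limma after TMM scaling 17 and 2. Of all 406 arms, edgeR called 55 as lower and 54 as higher, and DESeq2 57 and 61. The median difference on the log2 scale was -0.04 for the 170 members tested and -0.11 for the 236 remaining arms. Among detected arms it was -0.17 for 92 members, of which 70 were negative, and -0.15 for 217 remaining arms, of which 141 were negative. Of the 26 detected arms, 12 kept their call under every alternative setting and in every fit that left out 1 library. These were miR-1829c-5p, miR-1829a-5p, miR-1829a-3p, miR-8196a-3p, miR-2217b-3p, miR-4816-5p, miR-4816-3p, miR-2210-5p, miR-1828, miR-2953-5p, miR-1820-5p and miR-1830-3p.

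In 5 of 170 late-annotated arms the mutant libraries all lay below the wild-type ones at the matched hours, a pattern that 3.45% of all 406 arms showed, and in 0 they all lay above, as 3.20% of all arms did. miR-1829c-5p was the most clearly separated. It had 1272, 1452 and 1721 normalised counts as lowest, median and highest in the mutant, against 2343, 3015 and 3676 in wild type. Every mutant library was below every wild-type one. The difference was -1.03 ± 0.06 (limma adjusted p = 4.85e-07), which is a 2.05-fold lower level, and it was seen at 11 of 11 hours.

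miR-8196a-3p, from an intergenic hairpin on chromosome X (X:2328994-2329124), had 47.9, 131 and 169 normalised counts in the mutant and 178, 235.0 and 279 in wild type. The difference was -1.07 ± 0.11 (limma adjusted p = 1.92e-05). Its lowest mutant values, 47.9 to 77.1, came from the last 4 hours, 28 to 31 h, which include the 3 shallowest mutant libraries. Its sister miR-8196b-3p is rare, and its difference of -0.45 was not called (adjusted p = 0.0209).

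miR-2217b-3p had the most negative difference of all members. Its levels were 6.64, 9.90 and 18.4 normalised counts in the mutant, against 21.6, 32.9 and 41.3 in wild type, again without overlap. The difference was -1.16 ± 0.12 (limma adjusted p = 1.92e-05). This hairpin is annotated at 4 loci, on chromosomes II, IV and X. The sister miR-2217a-3p was not called, with a difference of -0.01 (adjusted p = 0.951), and the ratio of miR-2217b-3p to miR-2217a-3p had a median of 1.94 over the 14 hours of the mutant and 6.38 over those of wild type.

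Both arms of miR-4816 fell to a similar extent. miR-4816-3p had 637, 1081 and 1347 normalised counts in the mutant and 1469, 1784 and 2018 in wild type, with a difference of -0.78 ± 0.08 (limma adjusted p = 3.25e-05). For miR-4816-5p these levels were 57.2, 136 and 170.0 in the mutant and 182, 217 and 286 in wild type, with a difference of -0.90 ± 0.10 (adjusted p = 5.64e-05). Neither arm overlapped between the strains. The arm ratio of this hairpin did not pass the test (difference -0.12 ± 0.12, adjusted p = 0.415).

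**Figure D3:**
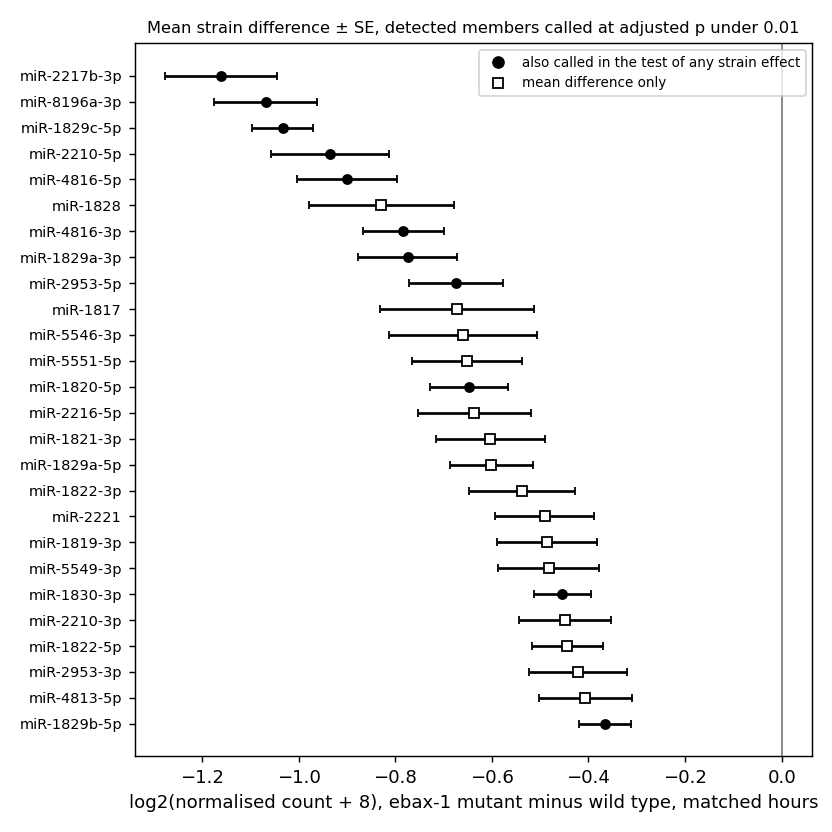
Mean difference on the log2(normalised count + 8) scale, ebax-1 mutant minus wild type over the matched hours, with SE, for the 26 detected late-annotated arms called at an adjusted p under 0.01. Filled circles were also called in the test of any strain effect. All points lie left of 0, from miR-2217b-3p at -1.16 to miR-1829b-5p at -0.37.

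The arms of miR-1829 and their sisters did not fall by the same amount. miR-1829b-5p had 4124, 5212 and 7820 normalised counts in the mutant and 5313, 6519 and 8478 in wild type, with overlap, and a difference of -0.37 ± 0.05 (limma adjusted p = 2.91e-04). For miR-1829a-5p the levels were 1408, 1770 and 2574 in the mutant and 1933, 2661 and 3271 in wild type, with a difference of -0.60 ± 0.09 (adjusted p = 2.30e-04). The 3p arms differed by -0.77 ± 0.10 for miR-1829a-3p, which was called, and by -0.24 for miR-1829b-3p and miR-1829c-3p, which both just missed the threshold at an adjusted p of 0.0103. The ratio of miR-1829b-5p to miR-1829c-5p had a median of 3.51 over the 14 hours of the mutant, against 2.29 in wild type, and ranged between 2.20 and 4.95 in the mutant and between 1.91 and 3.48 in wild type.

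Of the other abundant arms, miR-1820-5p had 739, 1494 and 1910 normalised counts in the mutant and 1691, 2210 and 2815 in wild type, with a difference of -0.65 ± 0.08 (limma adjusted p = 9.93e-05). miR-1830-3p differed by -0.45 ± 0.06 and miR-1822-3p by -0.54 ± 0.11, although the call of miR-1822-3p was lost without the 3 shallowest mutant libraries. Lower levels were seen in the mutant at 11 of 11 hours for miR-1820-5p and miR-1830-3p and at 10 for miR-1822-3p. miR-4936, in contrast, averaged 584 normalised counts in the mutant and 570 in wild type over all hours and did not pass the test (difference 0.12, adjusted p = 0.108).

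miR-2210, which overlaps an exon of ZK593.2 (IV:10914618-10914678), fell in both arms. The 5p arm had 6.73, 18.2 and 29.9 normalised counts in the mutant and 22.3, 42.1 and 74.1 in wild type and differed by -0.93 ± 0.12 (limma adjusted p = 1.27e-04). The 3p arm differed by -0.45 ± 0.09, a call that was lost with TMM scaling, with both count tests and without the shallowest mutant libraries. miR-1828, the intronic miRNA of pash-1, had 5.93, 13.5 and 24.8 normalised counts in the mutant, against 18.5, 29.3 and 42.9 in wild type, and differed by -0.83 ± 0.15 (adjusted p = 0.00122). It was lower at 11 of 11 hours.

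The remaining called arms differed by between -0.67 and -0.41. They were miR-2953-5p, miR-1817, miR-5546-3p, miR-5551-5p, miR-2216-5p, miR-1821-3p, miR-2221, miR-1819-3p, miR-5549-3p, miR-1822-5p, miR-2953-3p and miR-4813-5p. Of the 26 calls, 10 were lost with TMM scaling and 6 without the 3 shallowest mutant libraries. Some depended on the shift of 3 h. Without a shift, the calls of miR-5546-3p, miR-1821-3p, miR-1822-5p, miR-2221 and miR-4813-5p were lost. With a shift of 2 h those of miR-5546-3p and miR-2221 were lost. With 4 h the calls of miR-1817, miR-4813-5p, miR-2210-3p and miR-1819-3p were lost. Under the 13 alternatives, the calls of miR-4813-5p held least often, under 5, and those of miR-2221 and miR-5549-3p under 6. In the 22 fits that left out 1 library, the call of miR-2953-3p held in only 5, and those of miR-4813-5p and miR-1817 in 11.

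No member was called as higher in the mutant with limma as reported. The arms with a positive difference and an unadjusted p under 0.05 included miR-4923b (0.55 ± 0.16, limma adjusted p = 0.0197), miR-8208-3p (0.47 ± 0.13, adjusted p = 0.0124), miR-8192-3p (0.39 ± 0.13, adjusted p = 0.0372) and miR-4810b-3p (0.34 ± 0.11, adjusted p = 0.0261). miR-4923b averaged 11.99 ± 7.16 normalised counts in the mutant and 3.88 ± 2.56 in wild type (SD over 14 hours). miR-8208-3p averaged 31.5 normalised counts in the mutant and 19.1 in wild type, was higher at 10 of 11 matched hours and passed the threshold under 9 of 13 alternative settings. Without a shift between the strains, 7 members were called as higher and 28 as lower, where 11.6% of all arms were higher and 24.1% lower.

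The hairpins of miR-4923b and miR-4810b belong to a dense group of 9 late-annotated hairpins within 7087 bases of chromosome X (X:1872952-1880038), all on the plus strand. This group was formed from positions after the values had been seen. The miRNA gene nearest to miR-4808, at 426 bases, is that of miR-4807, which was left out by name. miR-4807 was called as higher in the mutant (1.61 ± 0.09, limma adjusted p = 3.68e-07), at 11 of 11 matched hours. It does not enter the counts and sums of this group. Of its 13 arms 6 were detected, namely miR-4808-3p, miR-4809-3p, miR-2220-3p, miR-4810b-3p, miR-4810a and miR-4923b. The summed level of the 6 had a lowest, median and highest value of 146, 169 and 234 normalised counts over the 14 hours of the mutant, against 106, 134 and 186 in wild type. Of the 6 arms 4 had a positive difference. With limma as reported none was called, but miR-4923b was called as higher under 6 of 13 alternatives and miR-4810b-3p under 5, edgeR and DESeq2 among them for both, and miR-2220-3p under 1, without a shift. Among the other 86 detected members 18 differences were positive and 68 negative.

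Over the 14 hours of a strain, a linear trend was fitted together with a rhythm of 7 h. In the mutant 6 members rose and 8 fell, where 8.44% of all arms tested rose and 9.97% fell. In wild type 5 members rose and 10 fell, where 8.42% of all arms tested rose and 16.8% fell. As 158 members were tested in the mutant and 160 in wild type, the members' shares were 3.80% rising and 5.06% falling in the mutant and 3.12% rising and 6.25% falling in wild type. These include members that were not detected. Of the 92 detected members, 6.52% rose and 8.70% fell in the mutant, and 5.43% rose and 10.9% fell in wild type. In all, 22 members had a called trend in at least 1 strain and 7 in both, each time in the same direction. miR-5592 and the other hairpins left out by name do not enter these member counts. When 1 library at a time was left out, 7 of the 14 calls in the mutant and 9 of the 15 in wild type held in every fit. Without 31 h of the mutant 7 members had a called trend there, and without 22 h 9.

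Members that fell in both strains were miR-1821-3p, miR-5546-3p, miR-1820-5p and miR-4813-3p. miR-1821-3p had 350 normalised counts at 18 h and 80.5 at 31 h in the mutant, against 291 at 18 h and 107 at 31 h in wild type. Its slope was -0.16 ± 0.02 log2 units per hour in the mutant and -0.10 ± 0.01 in wild type. miR-5546-3p, which lies in an intron of arx-1, a gene of the Arp2/3 actin complex, averaged 21.1 normalised counts at 18 to 20 h and 1.70 at 29 to 31 h in the mutant, against 22.3 and 0.724 in wild type. By the last 3 hours it was thus at the level of single reads. miR-4813-3p averaged 609 early and 323 late in the mutant, against 523 and 261 in wild type.

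Members that rose in both strains were miR-1829b-3p, miR-2210-3p and miR-2212-5p. miR-1829b-3p averaged 333 normalised counts at 18 to 20 h and 561 at 29 to 31 h in the mutant, against 415 and 702 in wild type. miR-2210-3p averaged 160.2 early and 295 late in the mutant, against 256 and 587 in wild type. miR-2212-5p averaged 94.5 early and 165 late in the mutant, against 114 and 159.5 in wild type. Its neighbour miR-1819, whose hairpin starts 67 bases after its end on the same strand, had no called trend in either strain.

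A trend was called only in the mutant for miR-8196a-3p, miR-1823-3p, miR-8189-3p and miR-8192-3p, which fell, and for miR-1829c-3p, miR-4936 and miR-1829b-5p, which rose. It was called only in wild type for miR-2221, miR-4808-3p, miR-2953-5p, miR-2220-3p, miR-4816-5p and miR-4816-3p, which fell, and for miR-1817 and miR-2210-5p, which rose. Several of these calls were lost in most of the 14 fits that left out 1 library. Those of miR-4816-3p held in 2, of miR-4808-3p in 3, of miR-1829b-5p in 4, of miR-8189-3p in 5 and of miR-8192-3p in 6, as did that of miR-2212-5p in wild type. A call in a single strain does not show a difference, and the difference in slope between strains was tested directly. Of all 406 arms tested, 2.71% were called for it, and of 170 members 0. At an unadjusted p under 0.05 there were 15 of 170 members (8.82%), against 72 of all 406 arms (17.7%). edgeR and DESeq2 also called 0. For miR-2210-5p, the single arm with a trend call whose slope had opposite signs in the strains, the slopes were -0.02 in the mutant and 0.07 in wild type, with an adjusted p of 0.149 for the difference.

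**Figure D4:**
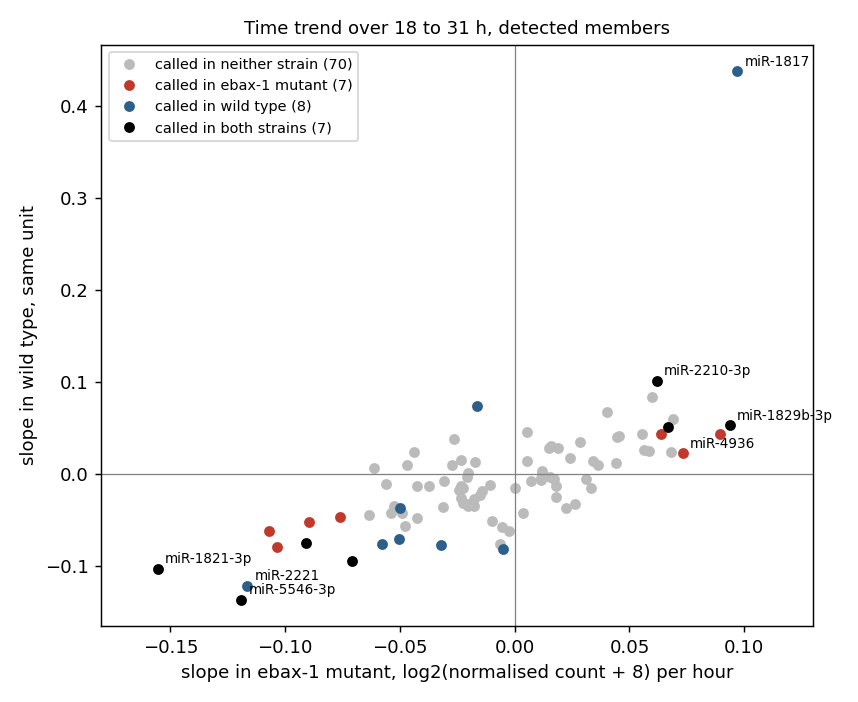
Slope over 18 to 31 h in log2(normalised count + 8) per hour, ebax-1 mutant on the horizontal and wild type on the vertical axis, for the 92 detected late-annotated arms. Black points were called in both strains, red in the mutant and blue in wild type. miR-1817 stands apart, with a slope of 0.10 in the mutant and 0.44 in wild type.

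The steepest trend of any member was that of miR-1817, from an intergenic hairpin on chromosome I (I:10869370-10869474). This ranking does not include miR-5592, whose number is above the limit and which was left out by name. At the matched hours miR-5592-3p averaged 1192 ± 1731 normalised counts in the mutant and 1450 ± 2172 in wild type (SD over 11 hours). In the mutant it stayed between 4.96 and 23.5 normalised counts through 30 h and reached 85.9 at 31 h. In wild type it stayed between 8.04 and 59.4 normalised counts until 27 h and then reached 127 at 28 h, 388 at 29 h, 1229 at 30 h and 2342 at 31 h. At 31 h the wild-type level was 27.2 times the mutant level. The slope was 0.10 ± 0.04 per hour in the mutant (limma adjusted p = 0.0942) and 0.44 ± 0.09 in wild type (adjusted p = 0.00126).

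The difference in slope of miR-1817 over the same clock hours was -0.34 ± 0.10 with a limma adjusted p of 0.0444, which did not pass the threshold. At the matched hours it was -0.05 (adjusted p = 0.807). At these hours the mutant level of 31 h, 85.9, stood against a wild-type level of 127 at 28 h, and the steep late hours of wild type had no mutant counterpart. The mean difference at matched hours was -0.67 ± 0.16 (adjusted p = 0.00608), a call that was lost with TMM and DESeq2 scaling, a pseudocount of 1 and a shift of 4 h, and that held in 11 of 22 fits that left out 1 library.

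**Figure D5:**
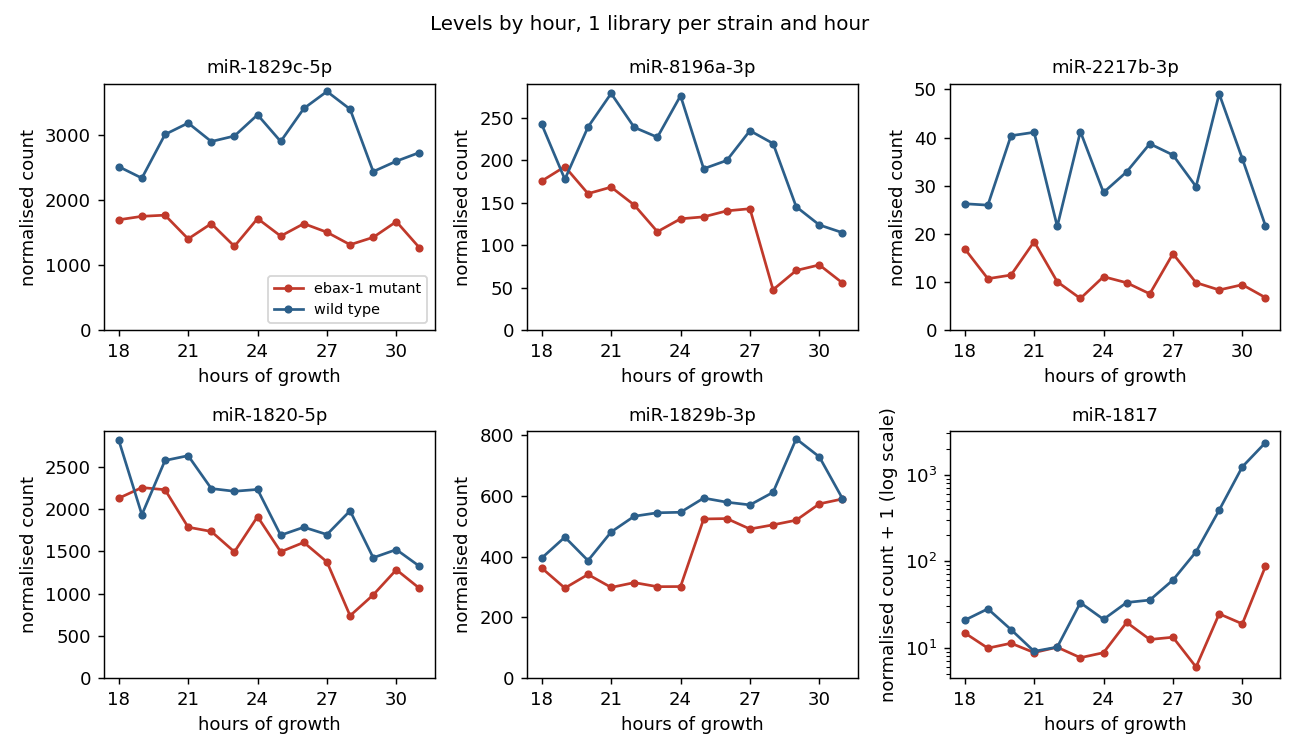
Normalised counts by hour of growth for 6 late-annotated arms, ebax-1 mutant in red and wild type in blue, with 1 library per point. miR-1817 is drawn with 1 added on a log axis. miR-1829c-5p and miR-2217b-3p are lower in the mutant at every hour. A falling trend was called in both strains for miR-1820-5p and only in the mutant for miR-8196a-3p, a rising one in both strains for miR-1829b-3p, and miR-1817 reaches 85.9 in the mutant and 2342 in wild type at 31 h.

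A rhythm of 7 h was not called for any late-annotated arm. In the mutant 2.81% of all arms were called and in wild type 7.91%, but 0 of 158 members in the mutant and 0 of 160 in wild type. All these sets include arms that were not detected. Of the 92 detected members, 0 were called in the mutant and 0 in wild type. The period was fixed at 7 h in both strains, although the mutant develops more slowly. At an unadjusted p under 0.05 there were 7 members in the mutant and 14 in wild type. The lowest limma adjusted p was 0.184 in the mutant, for miR-8208-3p, and 0.0118 in wild type, for miR-8192-5p. The 3 arms of the whole table whose log2 levels over the 28 libraries were most like those of miR-1829b-5p were miR-77-3p, miR-786-3p and miR-48-5p, with a Pearson r of 0.87, 0.86 and 0.85. The libraries share strain and time, so this is given as a description.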

How the data were processed

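Small RNA libraries of whole larvae were prepared from total RNA with a CleanTag kit and read single-ended. The authors trimmed the adapter, aligned reads to ce10 with Bowtie through QuasR, allowing several hits per read, and counted reads whose 5′ end lay near that of a mature miRBase arm on the same strand; the deposited raw counts are one table of 28 libraries. A second deposited table holds log2 values, log2(count / library total × mean library total + 8), which were recomputed from the counts to within 0.0005.

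Members and lists were chosen with earlier results of these data known. Detection needed 3 counts in 7 of 14 libraries of a strain. The named miRNAs are those called for a strain effect, the 12 most abundant, the steepest called trends, and hairpins with both arms or lettered sisters detected. No mature sequences were used here. Hairpins were placed with the Ensembl annotation of WBcel235, a later assembly than the build of the reads, and are named with it.

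The log2 values were tested with limma 3.58.1 in R 4.3.3, over all arms with a read, at a Benjamini-Hochberg adjusted p under 0.01. The strain fit had 22 libraries, a cubic B-spline (6 components) over matched hours for each strain, and 8 residual degrees of freedom. As each strain and hour has 1 library, p-values measure the scatter around smooth curves and not that between cultures. edgeR 4.0.16 and DESeq2 1.42.0 on the counts, other scalings (TMM, size factors), pseudocounts, filters, shifts and left-out libraries were alternatives. Scripts were tested on simulated data.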

Additional observations from a re-analysis of the deposited data

How the results depend on the processing

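The number of detected members, 92 as reported, was 117 with at least 1 count, 58 with at least 10 counts and 60 with 3 counts in all libraries of a strain. The members called for any strain effect numbered 7 after TMM scaling, 5 after scaling by DESeq2, 6 with a pseudocount of 1, 21 without a shift, 7 with edgeR and 1, miR-8200-5p, without the 3 shallowest mutant libraries. Over all arms the counts were, in the same order, 57, 53, 42, 133, 68 and 19, against 67 as reported. The members called for any strain effect numbered between 3 and 13 when 1 library was left out. The members lower in the mutant numbered 17 after TMM scaling and 16 after scaling by DESeq2, and 21 to 29 when 1 library was left out. Of all arms, 53 were lower after TMM scaling and 52 after scaling by DESeq2, against 90 as reported. The members higher in the mutant, 0 in the analysis as reported, numbered 2 after TMM scaling, 4 after scaling by DESeq2, 2 with a mean of at least 10, 7, 2 and 1 with shifts of 0, 2 and 4 h, 1 with a spline of 4 components, 1 without the shallowest mutant libraries, 5 with edgeR, 6 with DESeq2 and 2 with the replicate block, and 0 to 2 when 1 library was left out. Of all arms, 33 were higher as reported, 50 after TMM scaling, 52 after scaling by DESeq2 and 36 with a mean of at least 10. Their number was 47, 35 and 41 with those shifts and 32 with the spline of 4 components. It was 26 without the shallowest mutant libraries, 54 with edgeR, 61 with DESeq2 and 30 with the replicate block. Trend counts in the mutant ranged between 7 (without 31 h) and 14 and in wild type between 10 and 17 when 1 library was left out. The count of changed arm ratios was 1 with a shift of 4 h and 1 to 4 when 1 library was left out. The sign of the arm ratio difference changed for miR-4816 without a shift (0.0065) and, without the shallowest mutant libraries, for miR-1822 (-0.0227), miR-4812 (-0.128) and miR-1829a (-0.0394), none of which was called. With the matched hour as a replicate block, 25 members were lower in the mutant, among 76 of all 406 arms. The cause of these shifts was not tested. Each strain and hour has 1 library, levels near 3 counts carry large counting error, and reads shared between sisters limit miR-1829, miR-2217b and miR-8186.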

Other observations

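Outside the named lists, both arms of miR-8200, a hairpin on chromosome V that did not reach the detection limit in either strain, were read mostly in the mutant. The 5p arm had 25 reads in 9 of the 14 mutant libraries and 1 read in 1 wild-type library. The 3p arm had 36 reads in 10 mutant and 9 reads in 6 wild-type libraries. The differences at matched hours were 0.33 ± 0.10 (limma adjusted p = 0.0266) and 0.35 ± 0.14 (adjusted p = 0.0692), and neither passed the threshold. Without the 3 shallowest mutant libraries, the 5p arm was called (0.35, adjusted p = 8.12e-04). Single libraries held at most 8 reads of an arm.

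The 3 arms most like miR-1817 over the 28 libraries were miR-85-5p, miR-359 and miR-246-5p, with a Pearson r of 0.94, 0.90 and 0.84. miR-1817 was singled out after its values were seen, and its highest levels are those of wild type at 29 to 31 h.

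Of the detected members with a single locus, 47 arms came from hairpins inside a gene of the same strand and 41 from others. The mean strain difference was called as lower for 17 of the 47 and 8 of the 41, with medians of -0.24 and -0.13 on the log2 scale. Of all 406 arms 22.2% were called as lower, and of the 92 detected members 28.3%. Arms of the same hairpin were counted separately. The split by host gene was made after the values were seen and was not tested.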
